A study of Mus musculus with 6 samples.

Results

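The genes of the retromer, the sorting nexins and the endosomal sorting complexes required for transport (ESCRT) were examined in type 1 conventional dendritic cells (cDC1s) from wild type mice and from mice with Vps33b deleted. They are 43 genes, listed by known function and matched by symbol to the Ensembl identifiers of the count table, out of 32285 features. Of these, 22 belong to the recycling arm (4 retromer core genes and 18 sorting nexins) and 21 to the degradative arm (ESCRT and its ATPase). All 43 passed the filter on low counts. The mice were C57BL/6 and received 50 µg of house dust mite material (HDM) by the nasal route, and cDC1s of the mLN were sorted 24 h after that. There were 3 libraries of wild type mice (WT) and 3 of mice with the genotype Vps33BdeltaDC, titled Vps33B KO (KO). Both groups had the same strain and the same HDM exposure, and no unexposed group was analysed. The driver of the deletion, the exons removed and the age of the mice were not given in the sources used here. Nothing states that replicates came from different mice, so a p-value reflects only how these libraries vary, and that variation may be technical. In sorted bulk cells, fewer cells of a type and less RNA per cell cannot be told apart.

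Proteins that reach the early endosome are either returned to the cell surface or the Golgi, or they are sorted into intralumenal vesicles and degraded in the lysosome. Retromer, a trimer of VPS26, VPS29 and VPS35, takes cargo out of the endosome, with sorting nexins that bind phosphoinositides, bend the membrane into tubules or select the cargo. The ESCRT complexes act one after another on ubiquitinated cargo: ESCRT-0 binds it, ESCRT-I and ESCRT-II pass it on, and ESCRT-III filaments pinch off the vesicle before the ATPase VPS4 takes them apart. In dendritic cells this choice bears on captured antigen and on MHC molecules. VPS33B, a Sec1/Munc18-family protein, acts with VIPAS39 in membrane fusion on the same endosomal route.

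Vps33b, the targeted gene, was at 16.2, 19.1 and 13.8 CPM (counts scaled to a common library size by TMM) in WT and at 5.0, 7.01 and 8.29 CPM in KO, lower in every KO library. Over the 12568 genes tested its log2 fold change was -1.28 ± 0.27 (SE, edgeR quasi-likelihood adjusted p = 0.834), and an exact two-sided permutation test gave p = 0.1, the smallest that 3 against 3 can reach. The libraries held between 11755944 and 18450678 counts. Markers of cDC1s were present in every library (12 of 12 genes above 0), with a summed level of 3989 to 4550 CPM in WT and 4032 to 4348 CPM in KO. Of these 12 genes 9 had a log2 fold change below 0 (median -0.29), and 3 of them, Xcr1, Clec9a and Wdfy4, had an unadjusted p under 0.05. Xcr1 libraries were at 13.5, 44.6 and 13.1 CPM in WT against 9.42, 5.72 and 11.4 CPM in KO, and Wdfy4 libraries at 66.9, 110.6 and 68.6 CPM against 41.7, 33.3 and 58.3 CPM, neither with an overlap and both with an edgeR adjusted p of 0.834. The sum is carried by Irf8, Id2 and Flt3. Of the markers of other cells, those of monocytes and macrophages summed to 193 to 347 CPM in WT and to 165 to 651 CPM in KO, with the highest value in KO replicate 3. Lyz2 carried most of each sum (468 CPM in KO replicate 3), while 6 of the 10 genes had a log2 fold change below 0. Only Cd14 had an unadjusted p under 0.05, and it was lower in every KO library (-1.75 ± 0.41, edgeR adjusted p = 0.834). No gene of that list was at 0 in all libraries, and 2 of its 10 genes were at 0 in some. T cell markers summed to between 42.98 and 60.1 CPM and B cell markers to between 10.2 and 37.4 CPM over all libraries, and no gene of either list was at 0 throughout. Markers of cDC2s summed to 207 to 301 CPM in WT and 237 to 298 CPM in KO, mostly from Irf4 and Klf4, while Cd209a, Mgl2 and Clec10a were at most at 1.85 CPM in a library. Cd4 of the T cell list was lower in every KO library (edgeR adjusted p = 0.834), while 5 of the 7 genes had a log2 fold change above 0. Plasmacytoid dendritic cell markers summed to 111 to 152 CPM in WT and 122 to 171 CPM in KO. Of these 6 genes 4 were below 0 (median -1.05), and Siglech was lower in every KO library (edgeR adjusted p = 0.834). NK cell, neutrophil, and stroma and epithelium markers summed to at most 10.5, 8.20 and 39.0 CPM in a library. A part of these other cells, or of the lower cDC1 markers, in the results below was not tested.

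Promoter sequences are shown for the 3 members with the smallest p-values in the comparison below, Vps26a, Snx3 and Snx6, and for Vps26b, the paralog of Vps26a. They were taken from RefSeq (GRCm38.p6, the assembly of mm10), which gave windows for 33 of the 43 members, and cover up to 250 bases before the outermost annotated start, 5′ to 3′ on the gene's strand. They lie at chr10:62486806-62487055 (minus strand) for Vps26a, chr9:27030095-27030344 (minus) for Vps26b, chr10:42501804-42502029 (plus) for Snx3 and chr12:54795704-54795912 (minus) for Snx6. The capitals mark CACGTG, an E-box that forms the core of the CLEAR element known from promoters of lysosomal genes.
Vps26a: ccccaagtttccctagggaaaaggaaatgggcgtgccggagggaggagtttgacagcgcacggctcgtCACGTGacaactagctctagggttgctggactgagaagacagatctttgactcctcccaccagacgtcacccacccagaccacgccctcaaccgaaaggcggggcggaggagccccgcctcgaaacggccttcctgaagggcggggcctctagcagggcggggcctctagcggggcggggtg
Vps26b: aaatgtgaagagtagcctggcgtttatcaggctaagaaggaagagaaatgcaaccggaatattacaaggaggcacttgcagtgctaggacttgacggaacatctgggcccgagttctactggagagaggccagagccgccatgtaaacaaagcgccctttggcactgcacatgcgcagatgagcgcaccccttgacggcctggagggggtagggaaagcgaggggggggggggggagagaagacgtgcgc
Snx3: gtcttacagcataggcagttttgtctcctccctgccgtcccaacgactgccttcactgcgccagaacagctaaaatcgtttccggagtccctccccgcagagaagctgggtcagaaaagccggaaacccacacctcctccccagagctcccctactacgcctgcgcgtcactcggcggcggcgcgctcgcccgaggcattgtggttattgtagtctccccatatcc
Snx6: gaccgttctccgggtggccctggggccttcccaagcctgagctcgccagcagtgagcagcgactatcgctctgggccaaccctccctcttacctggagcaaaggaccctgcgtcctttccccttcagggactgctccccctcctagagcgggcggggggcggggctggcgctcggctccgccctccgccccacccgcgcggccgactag

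The printed Vps26a window held CACGTG once, at bases 69 to 74 counted from its 5′ end, and the other 3 printed windows did not hold it. Before a second annotated start of Vps26a, further into the gene, there were 2 more matches, outside the printed stretch. The motif reads the same on both strands. Within 250 bases before any annotated start it was found in 5 of the 33 members, or 15.2%, namely Vps26a, Snx5, Snx8, Snx18 and Pdcd6ip, beside 6.86% of 27025 genes. In the comparison below Vps26a lay above 0 (log2 fold change 0.41) and the other 4 below it, between -0.24 and -0.03. The 27025 genes were not limited to those that passed the filter on low counts, whereas all members had passed it, so the 2 shares come from unlike sets. A match describes the letters of the window, and binding was not measured here.

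Compared per length of exon, the members spanned a wide range of levels, with subunits of ESCRT-III and the cargo adaptor Snx3 at the top. Chmp4b, the main filament subunit of ESCRT-III, was at 88.7 ± 11.4 CPM per kb in WT and 94.8 ± 14.5 CPM per kb in KO (SD, n = 3 each). Snx3, Chmp2a, Snx17 and Chmp1a followed, at means over the 6 libraries of 81.4, 81.3, 56.7 and 56.1 CPM per kb. At the lower end were Snx30, at 1.40 CPM per kb, and the ESCRT-0 gene Stam, at 3.31 CPM per kb. Snx29, a sorting nexin with a RUN domain, was close to the limit of detection, with 0 to 35 counts per library. Neighbours in this order could overlap. The libraries of Snx3 and Chmp2a ranged over 68.2 to 106 and 69.7 to 96.6 CPM per kb. Subunits that share a complex were not at like levels. Vps26a was at 45.6 CPM per kb, Vps35 at 24.3, Vps29 at 8.56 and Vps26b at 6.77. In ESCRT-II, Vps25 was at 43.1 CPM per kb, Snf8 at 24.9 and Vps36 at 6.37. The level of Vps25 is uncertain, since a model of another gene shares 67.2% of its exon bases. The length used is that of all annotated exons of a gene joined, so genes with long rarely used exons read low.

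**Figure D1:**
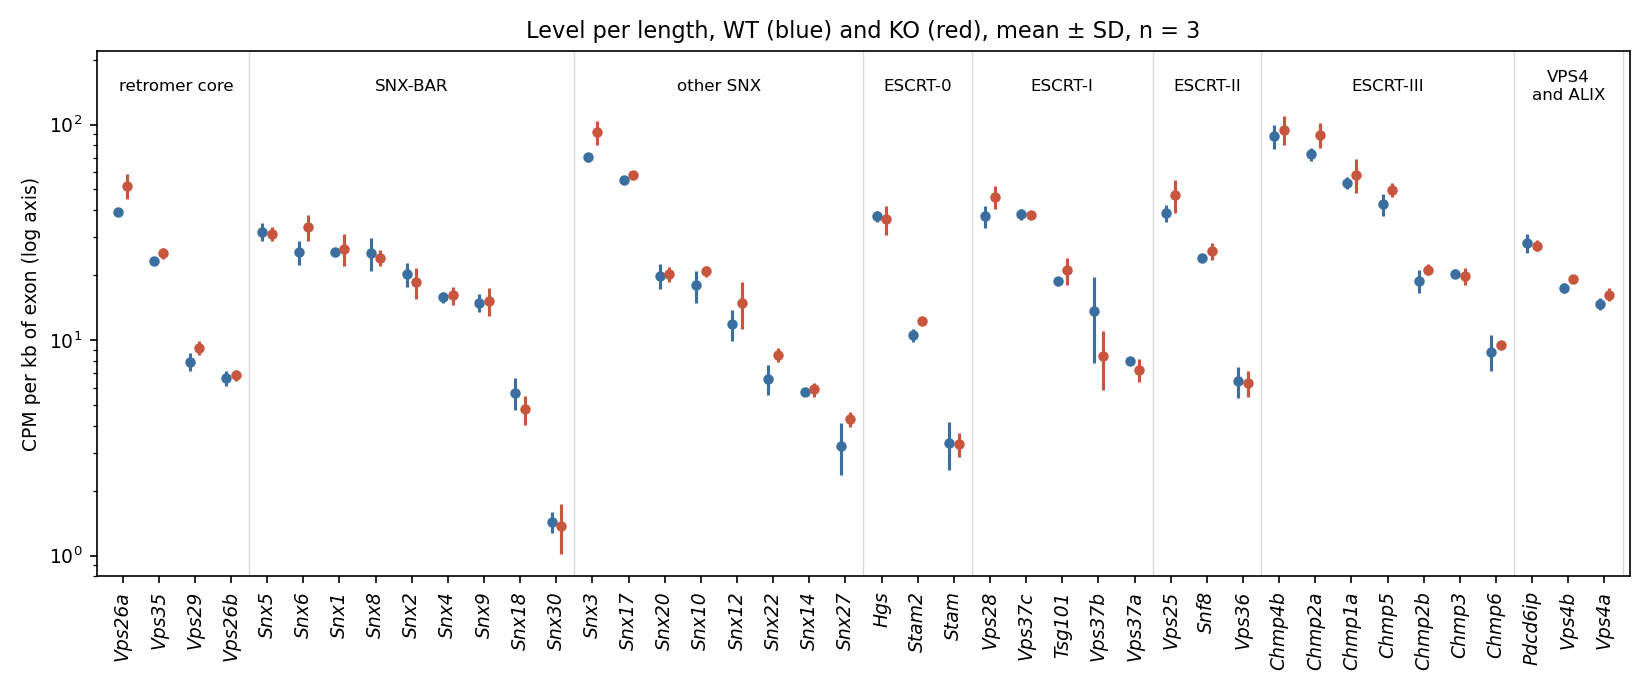
Level of 42 members (Snx29 left out), in CPM per kb of exon on a log axis, by role; points are means and bars SD of 3 WT (blue) or 3 KO (red) libraries. Chmp4b, Snx3 and Chmp2a stand highest and Snx30 lowest, and the bars of most genes overlap between the groups.

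The members had a low median spread between replicates. The median within-group SD of their log2 CPM was 0.162, against 0.284 over all genes tested and 0.216 over the 6960 genes in the range of the members' levels (10.9 to 217 CPM, Snx29 aside). Their median SE of a log2 fold change was 0.149, against 0.184 in that range. Some members lay above the latter, such as Vps37b (0.32) and Snx30 (0.27). Genes were not matched to the members in level within that range.

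The comparison of KO with WT asks whether the transcripts of either sorting route differ when Vps33b is deleted, and no member passed the test. By edgeR's quasi-likelihood test 0 of the 43 members had an adjusted p under 0.05, as did 0 of the 12568 genes (0% called in either direction). DESeq2 called 10 genes and limma-voom 0, and neither called a member. At an unadjusted p under 0.05 there were 3 members higher in KO and 0 lower, or 6.98% of the members, where 5.77% of all genes tested passed (2.71% higher and 3.06% lower). The smallest adjusted p of any member was 0.834. All KO libraries lay above all WT libraries for 6 members, or 14% (5.46% of all genes), and below them for 1 member, or 2.33% (5.19% of all genes). The median log2 fold change of the members was 0.11, with 30 of 43 above 0, beside a median of 0.00 and 50.6% above 0 over all genes. For 32 of the 43 members the difference was smaller than 0.25 on the log2 scale, as it was for 7665 of the 12568 genes tested. With offsets for GC content and length 34 members lay above 0, beside a median of 0.05 over all genes.

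**Figure D2:**
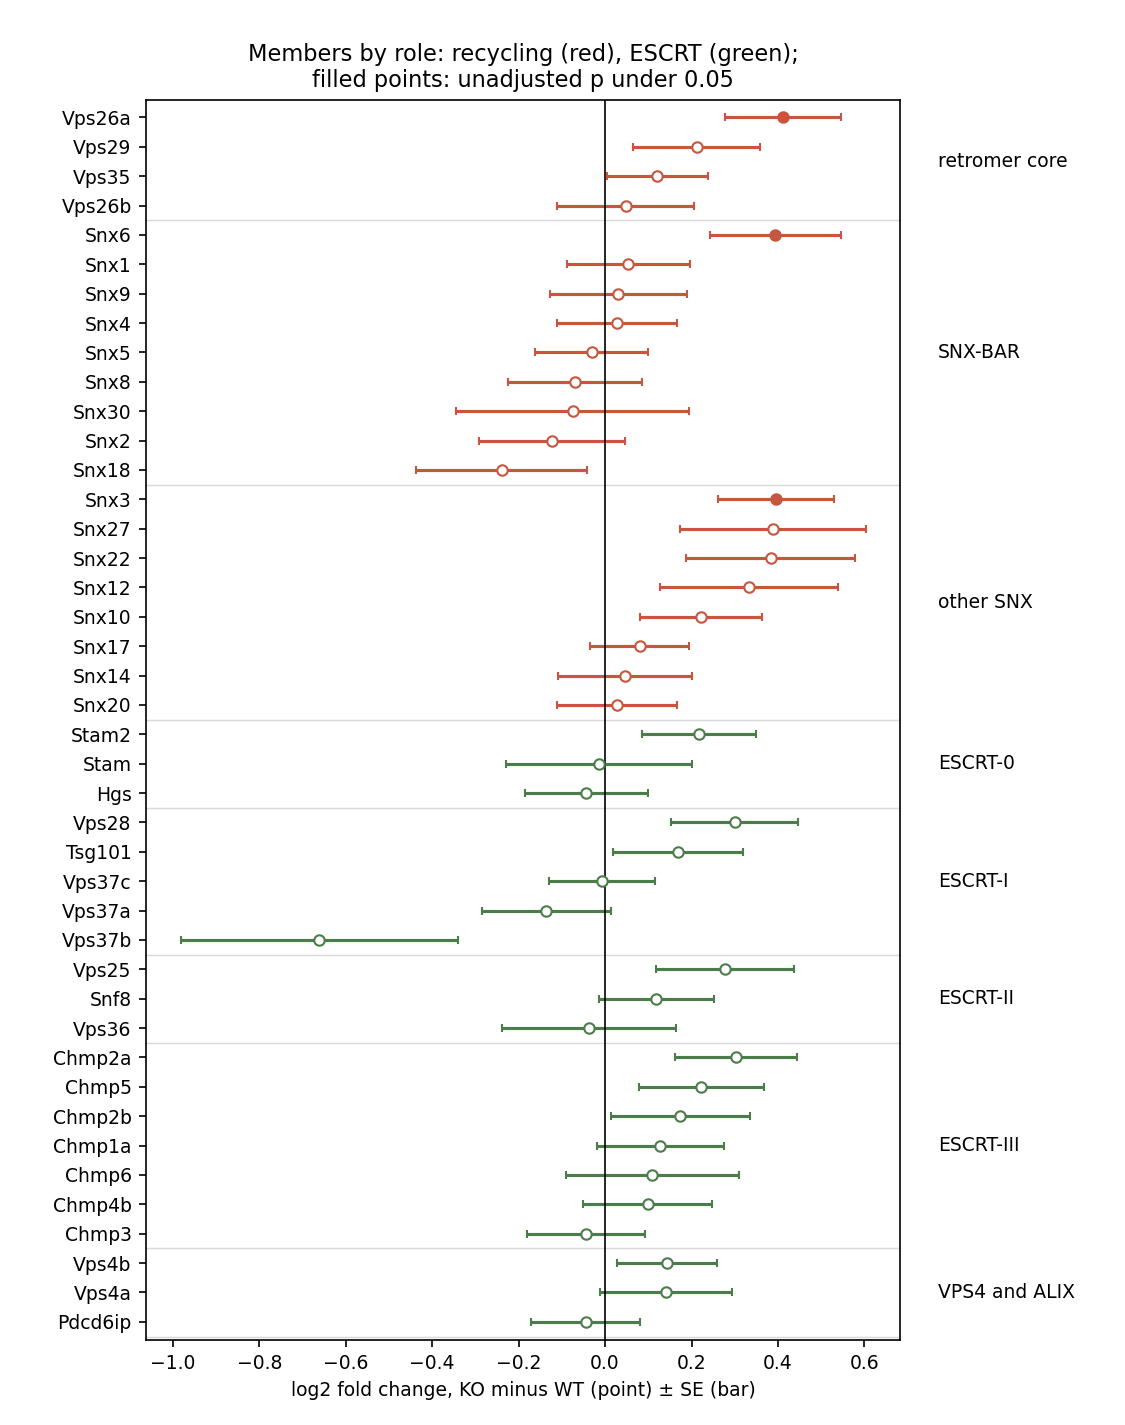
Log2 fold change (KO minus WT) ± SE of 42 members by role (Snx29, with an SE of 1.19, is left out); red points are recycling genes, green points ESCRT genes, and filled points have an unadjusted p under 0.05. Vps26a, Snx6 and Snx3 are the filled points, between 0.39 and 0.41, and Vps37b lies lowest at -0.66.

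The 4 core retromer genes were all above 0 (median log2 fold change 0.17), and Vps26a was furthest out. Without KO replicate 2 the median was 0.10, and without WT replicate 2 Vps26b lay below 0. Vps26a (ENSMUSG00000020078, mm10 chromosome 10, 62455235 to 62486805) encodes the more abundant of the arrestin-like VPS26 subunits that link retromer to sorting nexins. It was at 109, 115 and 112 CPM in WT and at 126, 157 and 163 CPM in KO, so that every KO library was higher and KO replicate 1 was nearest to WT. The log2 fold change was 0.41 ± 0.13 (SE), an unadjusted p of 0.0105 and an edgeR adjusted p of 0.834. Without KO replicate 3 its unadjusted p was no longer under 0.05, and without KO replicate 1 its adjusted p was 0.155.

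Vps29, the phosphoesterase-like subunit that retromer shares with the related retriever complex, was at 44.0, 49.4 and 53.1 CPM in WT and 54.4, 61.4 and 53.5 CPM in KO. The groups did not overlap, but KO replicate 3 was only just above WT replicate 3 (log2 fold change 0.21 ± 0.15, edgeR adjusted p = 0.853), and without KO replicate 2 the log2 fold change was 0.13. Vps35, the scaffold of the complex, was at 216, 201 and 206 CPM in WT and 212, 240 and 225 CPM in KO, with WT replicate 1 inside the KO range (0.12 ± 0.12). Vps26b, the paralog of Vps26a, was at 34.1, 31.2 and 36.4 CPM in WT and 37.0, 35.4 and 32.9 CPM in KO, which overlapped (0.05 ± 0.16). Fam216a, on the opposite strand, covers 5.5% of the exon bases of Vps29 and is a gene with at most 78 counts in a library. A strand setting for the counting was not given in the sources used here.

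**Figure D3:**
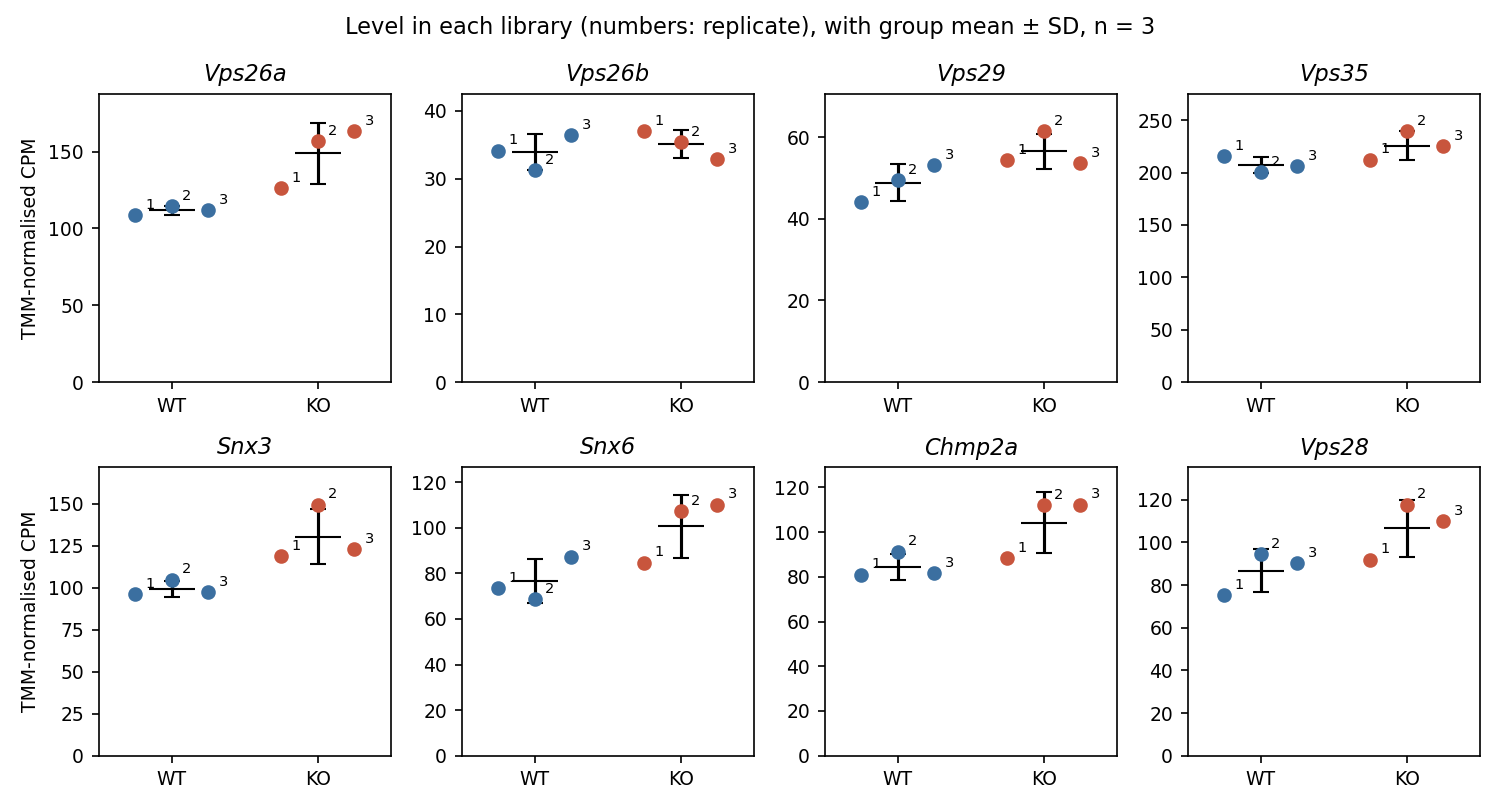
TMM-normalised CPM of 8 members in each library (points, numbered by replicate), with the mean and SD of 3 libraries per group in black; each axis starts at 0. For Vps26a, Vps29 and Snx3 all KO points lie above all WT points, and KO replicate 1 is the lowest KO point for Vps26a, Vps35, Snx3, Snx6, Chmp2a and Vps28.

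The sorting nexins with a membrane-bending BAR domain were spread around 0. Of 9 such genes 4 lay above it, the median log2 fold change was -0.03 (0.01 without WT replicate 3 and with GC and length offsets), and Snx6 lay furthest out. With these offsets the median over all genes was 0.05. Snx6 (ENSMUSG00000005656, chromosome 12, 54746349 to 54795703), which pairs with SNX1 or SNX2 to make recycling tubules, was at 73.4, 68.8 and 87.4 CPM in WT and at 84.7, 107 and 110 CPM in KO. KO replicate 1 lay inside the WT range, and KO replicates 2 and 3 lay above it. The log2 fold change was 0.39 ± 0.15 (unadjusted p = 0.0249, edgeR adjusted p = 0.834), and without any one of KO replicates 2 and 3 and WT replicates 1 and 2 the unadjusted p was no longer under 0.05.

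Snx5, its close paralog and the BAR nexin with the highest level per length, was at 143, 137 and 119 CPM in WT and 129, 140 and 121 CPM in KO, with no separation of the groups (-0.03 ± 0.13). Their partners Snx1 and Snx2 had log2 fold changes of 0.05 ± 0.14 and -0.12 ± 0.17. Snx4, of the recycling of transferrin receptor and autophagy proteins, was at 0.03 ± 0.14, and its partner Snx30 at -0.08 ± 0.27. The endocytic nexins Snx9 and Snx18, which bind dynamin, were at 0.03 ± 0.16 and -0.24 ± 0.20 (-0.13 without WT replicate 2, -0.36 without WT replicate 1), and Snx8 at -0.07 ± 0.16.

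The log2 fold changes of the other sorting nexins were above 0 for 9 of 9 genes (median 0.33), and only Snx3 had an unadjusted p under 0.05. The median was 0.16 without KO replicate 2 or WT replicate 3 and 0.21 without WT replicate 2, and Snx14, Snx20 and Snx29 had the other sign under some alternatives. Snx3 (ENSMUSG00000019804, chromosome 10, 42502030 to 42535381) consists of little more than a PX domain and is the retromer adaptor for cargo such as Wntless. It was at 96.3, 105 and 97.2 CPM in WT and at 119, 150 and 123 CPM in KO, so the groups did not overlap and KO replicate 2 was highest. Its log2 fold change of 0.395 ± 0.134 had an unadjusted p of 0.0129 (edgeR adjusted p = 0.834). Leaving out KO replicate 2 gave 0.27 and an unadjusted p above 0.05.

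Snx27, the PDZ-domain adaptor that brings surface receptors to retromer, was at 28.4, 16.2 and 22.3 CPM in WT and 31.6, 27.1 and 29.8 CPM in KO, where KO replicate 2 lay below WT replicate 1 (0.39 ± 0.22, edgeR adjusted p = 0.836). Its log2 fold change was 0.21 without WT replicate 2 and 0.60 without WT replicate 1. Snx22 was at 15.6, 21.4 and 20.1 CPM in WT and 22.7, 25.9 and 25.8 CPM in KO without overlap (0.38 ± 0.20, edgeR adjusted p = 0.834). Ppib, on the opposite strand, covers 28.5% of the exon bases of Snx22 and had 2060 to 3321 counts per library against 284 to 443 for Snx22, so the level of Snx22 is uncertain. Snx12, closely related to Snx3, was at 0.33 ± 0.21, but at 0.10 without KO replicate 2. Snx10, of endosomal and lysosomal maturation, was at 0.22 ± 0.14, and at 0.36 without WT replicate 2 and 0.15 without WT replicate 1. Without WT replicate 1 Snx22 was at 0.255. Snx17, which hands integrins to the retriever complex, was at 0.08 ± 0.12, Snx14 at 0.05 ± 0.15 and Snx20, a partner of the selectin ligand PSGL-1, at 0.03 ± 0.14. Smaller overlaps were those of Snx17 with the opposite-strand gene Eif2b4 (6.6% of exon bases) and of Snx14 with Gm20537 (8.9%). The value of Snx29 (0.49 ± 1.19) rests on 0 to 35 counts per library.

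Of the ESCRT-0 and ESCRT-I genes, Stam2 and Vps28 were furthest above 0 and Vps37b furthest below. Stam2, a ubiquitin-binding partner of HGS, was at 58.6, 63.9 and 67.6 CPM in WT and 72.6, 76.3 and 71.9 CPM in KO, without overlap (log2 fold change 0.22 ± 0.13, edgeR adjusted p = 0.853). Hgs, the ESCRT-0 subunit that binds PI3P on the endosome, was at 104, 114 and 118 CPM in WT and 127, 93.3 and 106 CPM in KO, and the KO libraries spread to both sides of WT (-0.04 ± 0.14). GENCODE M21 lists a duplicate model of Hgs over 97.2% of its exon bases, under an identifier that is not among the features used here. Stam was at -0.01 ± 0.22.

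Vps28, an ESCRT-I subunit that binds ESCRT-II, was at 75.3, 94.3 and 90.4 CPM in WT and 91.9, 118 and 110 CPM in KO, with KO replicate 1 inside the WT range (0.30 ± 0.15, edgeR adjusted p = 0.834). Tsg101, which binds ubiquitin and recruits ESCRT-I to ESCRT-0, was at 0.17 ± 0.15 (0.03 without KO replicate 2), and its counts may be shared with a pseudogene named after it. The VPS37 subunits differed among themselves. Vps37b was at 31.5, 56.9 and 26.3 CPM in WT and 25.6, 29.4 and 15.6 CPM in KO, with WT replicate 2 standing high and the groups overlapping (-0.66 ± 0.32, edgeR adjusted p = 0.834). Without 1 library its log2 fold change ranged from -0.88 to -0.28, and it was nearest to 0 without WT replicate 2. Hip1r, on the opposite strand, covers 32.9% of the exon bases of Vps37b and had 509 to 1498 counts per library. Vps37a was the only member with every KO library below every WT library, at 50.6, 51.8 and 50.6 CPM in WT and 48.7, 50.2 and 39.8 CPM in KO (-0.14 ± 0.15), and Vps37c was at -0.01 ± 0.12.

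Of the ESCRT-II and ESCRT-III genes 8 of 10 lay above 0, and none had an unadjusted p under 0.05. The ESCRT-III median of 0.13 moved to 0.20 without WT replicate 2 and to 0.22 without KO replicate 1. Vps25, which recruits the first ESCRT-III subunit, was at 60.5, 70.7 and 60.8 CPM in WT and 62.3, 88.7 and 81.2 CPM in KO, with KO replicate 1 inside the WT range (0.28 ± 0.16, edgeR adjusted p = 0.838). It was at 0.15 without KO replicate 2. Exons of Vps25 share 67.2% of their bases with a same-strand model of Ramp2, which had at most 12 counts in a library. Chmp2a, which joins the filament late and recruits VPS4, was at 81.0, 91.3 and 81.5 CPM in WT and 88.4, 112 and 112 CPM in KO, again with KO replicate 1 inside the WT range (0.30 ± 0.14, unadjusted p = 0.0543, edgeR adjusted p = 0.834). Chmp4b was at 164, 206 and 169 CPM in WT and 164, 223 and 189 CPM in KO, which overlapped (0.10 ± 0.15). Snf8 and Vps36 of ESCRT-II were at 0.12 ± 0.13 and -0.04 ± 0.20. The other ESCRT-III genes ranged from -0.04 ± 0.14 for Chmp3 to 0.22 ± 0.14 for Chmp5 (0.13 without WT replicate 3), with Chmp1a, Chmp2b and Chmp6 between them.

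The genes that end the reaction had log2 fold changes between -0.05 and 0.14. Vps4b, a copy of the ATPase that takes the filament apart, was at 160, 147 and 160 CPM in WT and 171, 173 and 171 CPM in KO, a narrow separation without overlap (0.14 ± 0.12, edgeR adjusted p = 0.885). Its paralog Vps4a was at 0.14 ± 0.15. Pdcd6ip, which encodes ALIX, an adaptor that brings CHMP4 proteins to membranes, was at 207, 172 and 206 CPM in WT and 194, 177 and 197 CPM in KO (-0.05 ± 0.13).

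Set against each other, the recycling and the degradative genes were not separated in a consistent direction. The median log2 fold change was 0.07 over the 22 recycling genes, of which 17 lay above 0, and 0.12 over the 21 ESCRT genes, of which 13 lay above 0. The median over all genes tested was 0.00. The recycling median was 0.109 without KO replicate 1 and the ESCRT median 0.066 without KO replicate 2. The difference of the medians, recycling minus ESCRT, was -0.05, but 0.014 with offsets for GC content and length and 0.005 without KO replicate 2. Taken in each library as the median of centred log2 CPM, recycling minus ESCRT, the values were 0.00, 0.02 and -0.03 in WT and 0.01, 0.01 and 0.05 in KO, which overlapped and differed in the other direction, by 0.03. Summed levels also gave the opposite sign to the difference of the medians. The recycling genes summed to 1646, 1729 and 1705 CPM in WT and 1771, 1962 and 1862 CPM in KO, and the ESCRT genes to 1663, 1734 and 1708 CPM in WT and 1715, 1887 and 1830 CPM in KO. The ratio of these sums was 0.989, 0.997 and 0.998 in WT and 1.03, 1.04 and 1.02 in KO, so that every KO library was higher, by a mean of 0.0353. No p is given for any of these measures, since the members were chosen with results of these data known.

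By role, the retromer core and the other sorting nexins had sums with no overlap between groups. The retromer core summed to 403, 396 and 408 CPM in WT and 430, 493 and 475 CPM in KO, a ratio of means of 1.16. The other sorting nexins summed to 639, 716 and 676 CPM in WT and 748, 823 and 741 CPM in KO, a ratio of means of 1.14. Sums of the BAR nexins (ratio of means 1.02), ESCRT-0 (1.03), ESCRT-I (1.02), ESCRT-II (1.12), ESCRT-III (1.10) and the VPS4 and ALIX genes (1.04) overlapped between the groups. KO replicate 2 held the highest level of the 6 libraries for 16 of the 43 members (37.2%, against 17.8% of all genes tested), and WT replicate 1 the lowest for 15 (34.9%, against 13.8%). Markers of mature dendritic cells summed to 13980, 14500 and 13840 CPM in WT and 14460, 16220 and 17680 CPM in KO, where KO replicates 2 and 3 were also highest. Mitochondrial genes held 1.82, 2.43 and 1.98% of counts in WT and 1.81, 2.52 and 2.34% in KO. The sum of monocyte and macrophage markers was highest in KO replicate 3 (651 CPM), mostly from Lyz2, and next in WT replicate 1 (347 CPM). A part of cell maturation, of monocytes and macrophages or of the mitochondrial share in the sums of the role groups was not tested.

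**Figure D4:**
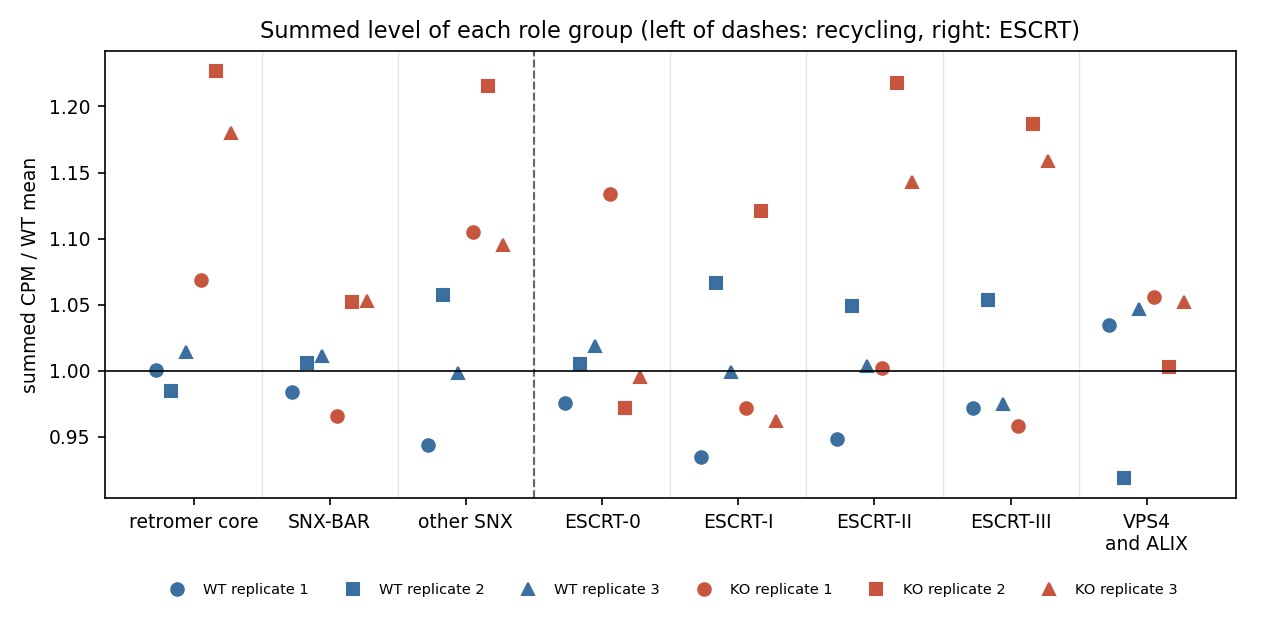
Summed CPM of each role group in each library, divided by the mean of the 3 WT libraries (blue WT, red KO; the symbol gives the replicate). The KO points of the retromer core and the other sorting nexins lie above all their WT points, whereas KO replicate 1 lies among the WT points for ESCRT-I and ESCRT-II and below them for the BAR nexins and ESCRT-III.

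In the paralog families of Vps26, Vps4, Stam, Vps37 and Chmp2 the same gene held the largest share in both groups. Vps26a made up 85.1, 86.7 and 84.6% of the VPS26 transcripts of retromer (CPM per kb of Vps26a over that of Vps26a and Vps26b) in WT and 85.9, 88.8 and 89.9% in KO, with KO replicate 1 inside the WT range. Chmp2a made up 79.5 ± 1.36% of Chmp2a and Chmp2b in WT and 80.8 ± 1.20% in KO, Stam2 76.1 ± 5.86% and 78.9 ± 2.17% of Stam2 and Stam, and Vps4b 54.3 ± 1.88% and 54.3 ± 1.84% of Vps4b and Vps4a (SD, n = 3 each). Vps37c made up 64.2 ± 7.0% of the 3 VPS37 transcripts in WT and 71.1 ± 3.97% in KO, and WT replicate 2, where Vps37b stood high, had the lowest share at 56.5%. Snx5 and Snx6, a pair chosen after their values were seen, were near parity per length. Snx5 was at 58.2, 58.8 and 49.4% in WT and 52.2, 48.3 and 44.0% in KO, and these ranges overlapped. All these shares depend on the joined exon lengths, such as 8905 bases for Vps4b and 2522 for Vps4a, or 4177 for Snx5 and 2998 for Snx6. Not divided by length, the WT means were 155.5 CPM for Vps4b and 37.1 CPM for Vps4a. They were 132.8 CPM for Snx5 and 76.5 CPM for Snx6.

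Of the other genes of these routes, none passed the test. The list of the actin-nucleating WASH complex, the retriever and COMMD proteins and regulators of retromer had a median log2 fold change of 0.16, with 17 of 22 tested genes above 0. The unadjusted p was under 0.05 for 2 genes, both higher, or 9.09%, beside 2.71% of all genes tested. All KO libraries were above all WT libraries for 4, or 18.2%, beside 5.46% of all genes tested. Commd6, of the COMMD complex that works with retriever, was at 21.98, 17.8 and 17.1 CPM in WT and 28.6, 37.9 and 28.9 CPM in KO (log2 fold change 0.75 ± 0.20, unadjusted p = 0.00274, edgeR adjusted p = 0.834). The other of the 2 was Vps26c, the VPS26-like subunit of retriever, at 52.6, 58.9 and 64.0 CPM in WT and 77.1, 77.5 and 84.8 CPM in KO (0.45 ± 0.14, edgeR adjusted p = 0.834), named after its values were seen. For both genes every KO library was above every WT library.

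Sorting nexins that are not among the members had 6 of 11 tested genes above 0 (median 0.06). At an unadjusted p under 0.05 there were 0 higher and 1 lower, or 9.09% beside 3.06% of all genes tested. That gene was Snx32, with WT libraries at 12.7, 5.75 and 11.1 CPM and overlapping KO libraries at 7.39, 5.55 and 3.88 CPM (-0.82 ± 0.36). Further ESCRT and ubiquitin-handling genes had 10 of 21 above 0 (median -0.01). At the same p there were 0 lower and 1 higher, or 4.76% beside 2.71% of all genes tested. That gene was the ESCRT-III gene Chmp1b, with WT libraries at 54.96, 53.1 and 56.3 CPM and KO libraries at 69.0, 80.5 and 59.8 CPM (0.36 ± 0.15). It was the 1 gene of the list with all KO libraries above all WT libraries, or 4.76%, beside 5.46% of all genes tested. The kinases and scaffolds that make PI3P and PI(3,5)P2, the lipids that sorting nexins and ESCRT-0 bind, had 3 of 7 above 0 (median -0.04). Uvrag, a subunit of a PI3P kinase complex, had the smallest p, with KO libraries at 367, 352 and 393 CPM below WT libraries at 413, 412 and 445 CPM (-0.19 ± 0.12). It was the 1 gene of the 7 with all KO libraries below all WT libraries, or 14.3%, beside 5.19% of all genes tested. Cargo receptors of the recycling route had 3 of 7 above 0 (median -0.07), and Igf2r, the receptor for mannose 6-phosphate on lysosomal enzymes, had the smallest p (-0.51 ± 0.25), with overlapping groups. None of the 14 genes in these last 2 lists had an unadjusted p under 0.05.

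Exon length differed between the arms, and fold changes differed with it. The median joined exon length was 2730 bases for ESCRT genes and 4258 bases for recycling genes. Over all genes tested the median log2 fold change was 0.10 among genes of up to 2667 bases and -0.07 among genes of 6664 bases or more, the outer of 4 equally sized bins. The 9 members among the short genes, 8 of them ESCRT genes, had a median of 0.22, and the 7 among the long genes, 4 of them recycling genes, a median of 0.12. The 18 and 9 members in the bins between them had medians of 0.03 and 0.05. From the shortest to the longest bin, the recycling median was 0.395 (1 gene), 0.055 (10), 0.048 (7) and 0.172 (4), and the ESCRT median 0.199 (8 genes), -0.023 (8), 0.041 (2) and -0.014 (3). Within each bin the recycling median was thus above the ESCRT median, whereas over all members it was below, and bins of so few genes are given as a description. Over the 43 members, which share the same 6 libraries, log2 fold change and length had a Spearman rho of -0.26, beside -0.20 over all genes. With offsets for GC content and length the median was 0.12 for recycling genes and 0.11 for ESCRT genes, beside 0.05 over all genes.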

How the data were processed

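Sorted cDC1s gave 3 WT and 3 KO libraries, read in pairs of 150 bases per the labels' protocols. The authors deposited raw counts per gene identifier with no normalisation. The submitters' processing notes name HISAT2 2.0.5, HTSeq and mm10, while an annotation release, a strand setting and the handling of multiply matching reads were not found in the sources used here. Each column was assigned to its sample by the description label. Symbols, positions and exon lengths are those of GENCODE M21 (mm10), which named 32235 features.

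Genes were kept by edgeR's filterByExpr (12568 genes), scaled by TMM and tested in edgeR 4.0.16 under R 4.3.3 by a robust quasi-likelihood fit (legacy = FALSE), KO against WT with no other term. P-values were adjusted by Benjamini-Hochberg over all genes tested, at a threshold of 0.05. The SE is the size of the log2 fold change over the root of F. CPM per kb is CPM over the length of all annotated exons joined. The chi-square per degree of freedom between libraries of a group was 21.4 to 46.3, so none agreed within sampling noise. The members and lists were chosen with earlier results of these data known, so no list was tested.

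Full values are given for the retromer core, for members with an unadjusted p under 0.05 and, in each role group, for the member with the smallest p and that with the highest level per length. In each other pathway list the gene with the smallest p is named. Snx22, Snx27, Vps37a, Vps37b, Vps26c and the pair of Snx5 and Snx6 were added after their values were seen. The alternatives comprised RLE scaling, no filter, DESeq2 1.42.0, limma-voom (limma 3.58.1), the replicate number as a block, offsets for GC content and exon length, and leaving out each library. The older quasi-likelihood method and voom with quality weights were chosen after seeing the data.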

Additional observations from a re-analysis of the deposited data

How the results depend on the processing

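No member passed an adjusted p of 0.05 under any of the 14 alternatives, with a smallest adjusted p of 0.155. Over these alternatives 25 of the 43 members kept the sign of their log2 fold change, 21 above and 4 below 0, and 18 changed it in at least 1. The number of genes called, 0 in the main comparison, was 3 with no filter, 10 with DESeq2 and between 0 and 7 with a library left out. The number at an unadjusted p under 0.05 was 725 in the main comparison, 942 with the replicate block and 1210 with library quality weights. With a library left out it was between 376 (without KO replicate 2) and 1621 (without KO replicate 1), and 850 without WT replicate 2. Members higher at that p, 3 in the main comparison, were 8 with quality weights and between 1 (without KO replicate 2 or KO replicate 3) and 7 (without KO replicate 1), and were 5 without WT replicate 2. Members lower, 0 in the main comparison, were 1 with DESeq2 (Vps37b) and between 0 and 1 with a library left out. Under the alternatives all genes were not counted by direction. Whether these counts of members exceed the share over all genes is therefore not known.

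The recycling median ranged from 0.062 to 0.109 with a library left out. It was 0.121 with GC and length offsets, beside 0.046 over all genes. The ESCRT median ranged from 0.066 (without KO replicate 2) to 0.145 (without KO replicate 1). Their difference, -0.052 in the main comparison, was 0.014 with GC and length offsets and ranged from -0.048 to 0.005 with a library left out. Among the named members, Pdcd6ip was at 0.029 with GC and length offsets, still below the median over all genes with these offsets (0.046). With a library left out Vps26b ranged from -0.011 to 0.103, Snx5 from -0.106 to 0.023, Hgs from -0.168 to 0.047 and Chmp4b from -0.038 to 0.202. In all these cases the cause was not tested.

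Deviations of libraries with the same replicate number correlated at 0.005, 0.028 and -0.001. The labels do not say whether libraries with the same number were handled together, and a small shared effect need not show in these correlations. With the replicate block 0 genes were called and the difference of the medians was -0.05. At an unadjusted p under 0.05 there were 6 members higher and 1 lower, beside 942 of all 12568 genes tested (725 in the main comparison). With 3 libraries a group and a median SE of 0.149, differences of the size seen for most members were not resolved.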
